A study of Mus musculus with 29 samples.

Results

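The signal transducers and activators of transcription (STATs) are the transcription factors through which most cytokine receptors reach the nucleus. The members described here are the probe sets annotated to exactly 1 of the genes Stat2, Stat3, Stat4, Stat5a, Stat5b and Stat6, which are 12 of the 22690 probe sets of the array and 6 of the 12394 genes it names. A probe set is a group of short oligonucleotides on the array that together report 1 transcript. Stat3 has 3 probe sets, Stat4 has 1, and each of the other genes has 2. Tests were run on probe sets with 3 or more arrays above log2 6.99, the middle of the deposited values, which 7 of the 12 had and 5 had not, so 5 of the 6 genes have a tested probe set and Stat4 has none. The 5 dimmer probe sets are given as values.

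The study measured RNA of bone marrow-derived macrophages of C57BL/6 mice aged 8 weeks on 29 Affymetrix arrays. Marrow cells were grown for 7 days in Teflon bags with CSF-1 at 10 ng/ml, the growth factor that turns marrow precursors into macrophages. They were then kept for 24 h with 10 ng/ml of each added cytokine, and CSF-1 stayed in the medium of every group, the unstimulated one included. There were 8 arrays of unstimulated cells, 5 each of cells given IL-4, IL-6 or both, and 3 each of cells given IL-10 or IL-4 with IL-10. The labels do not say whether the arrays of a group came from separate mice or cultures, so p-values measure only the spread between these arrays, which may be technical. All 8 macrophage markers on the list used passed the filter. Scored as the median log2 difference from the unstimulated mean, they lay between -0.029 and 0.034 in unstimulated arrays, between -0.502 and -0.358 in the 3 groups given IL-4, and between 0.035 and 0.183 with IL-6 or IL-10 alone, and their part in the results was not tested. Of 7 measured markers of neutrophils and their precursors, 5 passed the filter. Their score was -0.186 to 0.411 in unstimulated arrays, -0.671 to -0.285 with IL-4+IL-6 and -0.813 to 0.379 over the other groups. Their part was not tested either.

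Cytokine receptors of this kind carry Janus kinases (JAKs) on their cytoplasmic tails. Ligand binding lets the kinases phosphorylate the receptor and then a STAT, which pairs with a second STAT, enters the nucleus and binds short palindromic sites. IL-4 acts mainly through STAT6, while IL-6 and IL-10 act mainly through STAT3, and the genes of several STATs and of the SOCS inhibitors are themselves targets of this signalling. An array of this kind reads the amount of STAT messenger RNA and not the phosphorylation that activates the protein.

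The values are log2 intensities from RMA, a method that gives 1 background-corrected and normalized value per probe set and array. A difference of 1 between groups is a 2-fold difference, and the level of 1 probe set cannot be set against that of another. Group differences come from limma, a linear model over all 29 arrays with moderated two-sided tests. A difference is called at a Benjamini-Hochberg adjusted p under 0.05 over the 11139 probe sets tested. The errors given after ± for differences are standard errors, and those after ± for group means are SDs. In bulk RNA, fewer cells of a type and less RNA per cell cannot be told apart. All comparisons with unstimulated cells use the same 8 unstimulated arrays.

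Only the unstimulated group has replicates 6 to 8. They were taken to belong with the 3 IL-10 and 3 IL-4+IL-10 arrays, and replicates 1 to 5 with the groups of 5 arrays. This split into 2 sets is an inference from how the replicates are numbered and stands in no label. Where a term for the set in the model changes a call, that value is given too. Between the unstimulated arrays of the 2 sets, 21.5% of all probe sets were called by limma, and among the 7 tested STAT probe sets only that of Stat5a was. Scores of B-lineage markers moved with the sets, and their part in the results was not tested. The log2 of their summed levels overlapped between the sets, at 11.18 to 12.49 with IL-4 and 11.14 to 11.34 in unstimulated replicates 6 to 8. Over 6 measured markers, of which 4 passed the filter, the same kind of score lay between -0.006 and 0.682 in unstimulated replicates 1 to 5 and between -0.617 and -0.489 in replicates 6 to 8. It was -0.749 to -0.518 with IL-10, -1.572 to -1.138 with IL-4+IL-10, and -0.418 to 0.836 over the 3 groups of 5 arrays.

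The STAT probe sets did not move as a block. With IL-4 alone, 5 of the 7 tested were called, all lower, where 57% of all tested probe sets were called and 29.8% were called lower. IL-6 called 4 of 7 (37.2% of all), of which 3 were higher and 1 lower. IL-10 also called 4 of 7 (37.4% of all), with 3 higher and 1 lower. Of the combinations, IL-4+IL-6 called 6 of 7 (71.9% of all), and IL-4+IL-10 called 7 of 7 (70.9% of all). With the term for the set, Stat5a was also called, as higher, with IL-4, IL-6 and IL-4+IL-6. Stat6 1421708_a_at was then called as lower with IL-6, and the IL-10 calls of Stat5a and Stat6 1421708_a_at were lost. With only 7 probe sets these counts lie near the shares of the whole array, and the results are carried by the size and direction of each gene's change rather than by the number of calls.

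**Figure D1:**
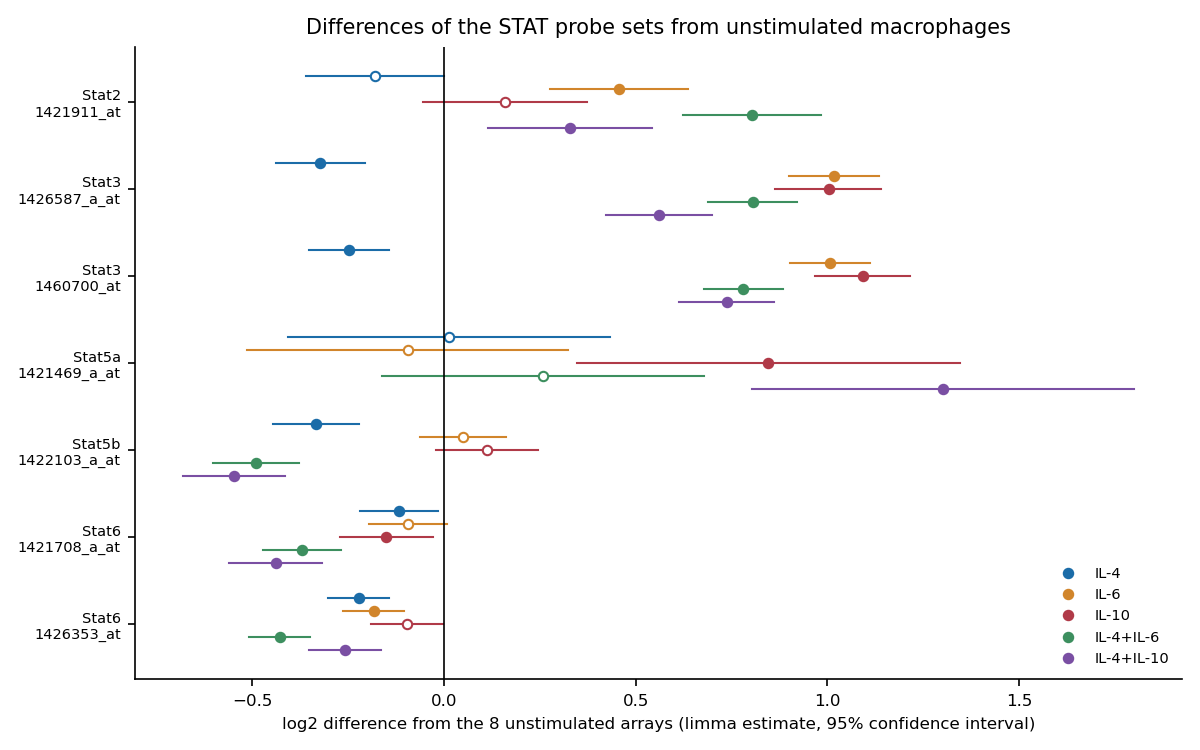
Log2 difference of each tested STAT probe set from the 8 unstimulated arrays (horizontal axis, limma estimate with its 95% confidence interval) for the 5 stimulations, filled where the adjusted p was under 0.05. Stat3 is to the right of 0 in the 4 groups that received IL-6 or IL-10 and to the left with IL-4 alone, Stat5b and Stat6 are lowest in groups that received IL-4, and the Stat5a intervals are the widest, with unstimulated arrays that fall into 2 ranges.

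Stat3 encodes the factor that relays IL-6 and IL-10. Its difference from unstimulated cells was the largest of any tested STAT with IL-6 alone and with IL-10 alone, and in both tested probe sets its RNA was higher in every array that received either cytokine than in any unstimulated array. The 250 bases before its annotated start are shown because STAT3 is known to act on its own gene. They come from the RefSeq promoter table (build GRCm38.p6), at chr11:100939541-100939790 on the minus strand, read 5′ to 3′, with the motif matches in capitals.

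Stat3: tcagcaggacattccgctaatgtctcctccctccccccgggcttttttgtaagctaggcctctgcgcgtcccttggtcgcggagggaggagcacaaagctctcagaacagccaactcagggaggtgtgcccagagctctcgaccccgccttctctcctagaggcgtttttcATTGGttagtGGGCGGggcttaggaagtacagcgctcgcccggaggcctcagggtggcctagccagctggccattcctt

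The search covered both strands for the STAT site TTCNNNGAA (called GAS), its form with 4 free bases in place of 3, the core of the interferon element ISRE (TTTC, 2 free bases, TTTC), the GC box GGGCGG and the CCAAT box CCAAT. Of 32851 promoter windows of this length in the table, 7.02% hold the first, 5.85% the second, 2.98% the third, 32.7% the GC box and 33.8% the CCAAT box. The Stat3 window holds a CCAAT box on the opposite strand at -79 to -75 (counted back from the annotated start, with -1 the base before it) and a GC box at -69 to -64. Neither STAT site nor the ISRE core has a match in these 250 letters, which says nothing of sites elsewhere.

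Probe set 1460700_at of Stat3 read between 9.71 and 9.93 in the 8 unstimulated arrays, with a median of 9.84. It read 10.90, 10.82, 10.79, 10.79 and 10.87 in the 5 IL-6 arrays, and 10.81, 11.00 and 10.94 in the 3 IL-10 arrays. The IL-4 arrays read 9.55, 9.53, 9.64, 9.74 and 9.42. All IL-6 and IL-10 arrays lay above all unstimulated ones, by a gap several times the spread within a group, while the highest IL-4 array lay just inside the unstimulated range. Probe set 1426587_a_at gave the same picture. Unstimulated arrays read 9.67 to 10.00 (median 9.74), IL-6 arrays 10.86, 10.75, 10.78, 10.82 and 10.74, and IL-10 arrays 10.69, 10.85 and 10.79. IL-4 arrays read 9.59, 9.60, 9.42, 9.34 and 9.30, all below the lowest unstimulated array.

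The RNA level thus rose about 2-fold with either STAT3-activating cytokine. For 1426587_a_at the log2 difference was 1.02 ± 0.06 with IL-6 (2.02-fold, limma adjusted p 3.09e-14) and 1.003 ± 0.068 with IL-10 (limma adjusted p 2.40e-12). For 1460700_at it was 1.01 ± 0.05 with IL-6 and 1.09 ± 0.06 with IL-10. The IL-10 and IL-6 groups overlapped in both probe sets, and their difference was not called. It was -0.01 ± 0.07 in 1426587_a_at (limma adjusted p 0.908, 95% interval -0.16 to 0.13) and 0.09 ± 0.06 in 1460700_at (limma adjusted p 0.388, 95% interval -0.05 to 0.22).

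IL-4 alone lowered Stat3 slightly. The log2 difference was -0.32 ± 0.06 in 1426587_a_at (1.25-fold lower, limma adjusted p 2.33e-05) and -0.25 ± 0.05 in 1460700_at (1.19-fold lower, limma adjusted p 0.000149). With IL-6 added to IL-4, 1460700_at read 10.64, 10.60, 10.55, 10.62 and 10.62, and with IL-10 added it read 10.44, 10.72 and 10.52. In 1426587_a_at the IL-4+IL-6 arrays read 10.70, 10.56, 10.59, 10.56 and 10.50 and the IL-4+IL-10 arrays 10.24, 10.43 and 10.34. Both combinations therefore stood between the single STAT3-activating cytokine and the unstimulated cells, without overlap with either.

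Against IL-4 alone, Stat3 rose by 1.13 ± 0.06 and 1.03 ± 0.06 with IL-6 added and by 0.88 ± 0.07 and 0.98 ± 0.06 with IL-10 added (1426587_a_at and 1460700_at in that order). Against IL-6 alone, adding IL-4 left it lower, at -0.21 ± 0.06 and -0.23 ± 0.06. Against IL-10 alone, adding IL-4 gave -0.44 ± 0.08 and -0.35 ± 0.07. All of these were called by limma in the same Benjamini-Hochberg adjustment. Whether the drop with IL-4 differed in the presence of a STAT3-activating cytokine is measured by the interaction. The interaction is what the combination shows beyond the sum of the single-cytokine differences, so at 0 the log2 differences add. It was 0.11 ± 0.08 and 0.02 ± 0.08 with IL-6, and -0.12 ± 0.10 and -0.11 ± 0.09 with IL-10, none of them called (limma adjusted p 0.325 to 0.851). With the term for the set and the replicate number as a random block, the first of these became 0.16 ± 0.06 and was called (limma adjusted p 0.0325).

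In the order of group means, 1426587_a_at ran from IL-6 through IL-10, IL-4+IL-6, IL-4+IL-10 and unstimulated to IL-4. Every neighbouring pair in it was called except IL-6 and IL-10. In 1460700_at the order began with IL-10 and IL-6, and neither this pair nor the 2 combinations were called as different. The 2 combinations differed in 1426587_a_at, by -0.24 ± 0.07 for IL-4+IL-10 against IL-4+IL-6. That call rested on 1 array and on the sets. Without IL-4+IL-10 replicate 1 it was -0.19 (limma adjusted p 0.0659), with the set term -0.12 (0.484) and with the set term and the block -0.12 (0.364).

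The third Stat3 probe set, 1424272_at, did not pass the filter and read 5.05 to 5.73 over all arrays. In a fit without the filter it rose by 0.31 ± 0.08 with IL-6, 0.31 ± 0.09 with IL-10, 0.32 ± 0.08 with IL-4+IL-6 and 0.32 ± 0.09 with IL-4+IL-10, all called by limma, and gave 0.05 ± 0.08 with IL-4, not called. Once the set term was added, the IL-6 (0.34) and IL-4+IL-6 (0.35) differences were called, and those with IL-10 (0.26, limma adjusted p 0.139) and IL-4+IL-10 (0.27, limma adjusted p 0.0571) were not.

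**Figure D2:**
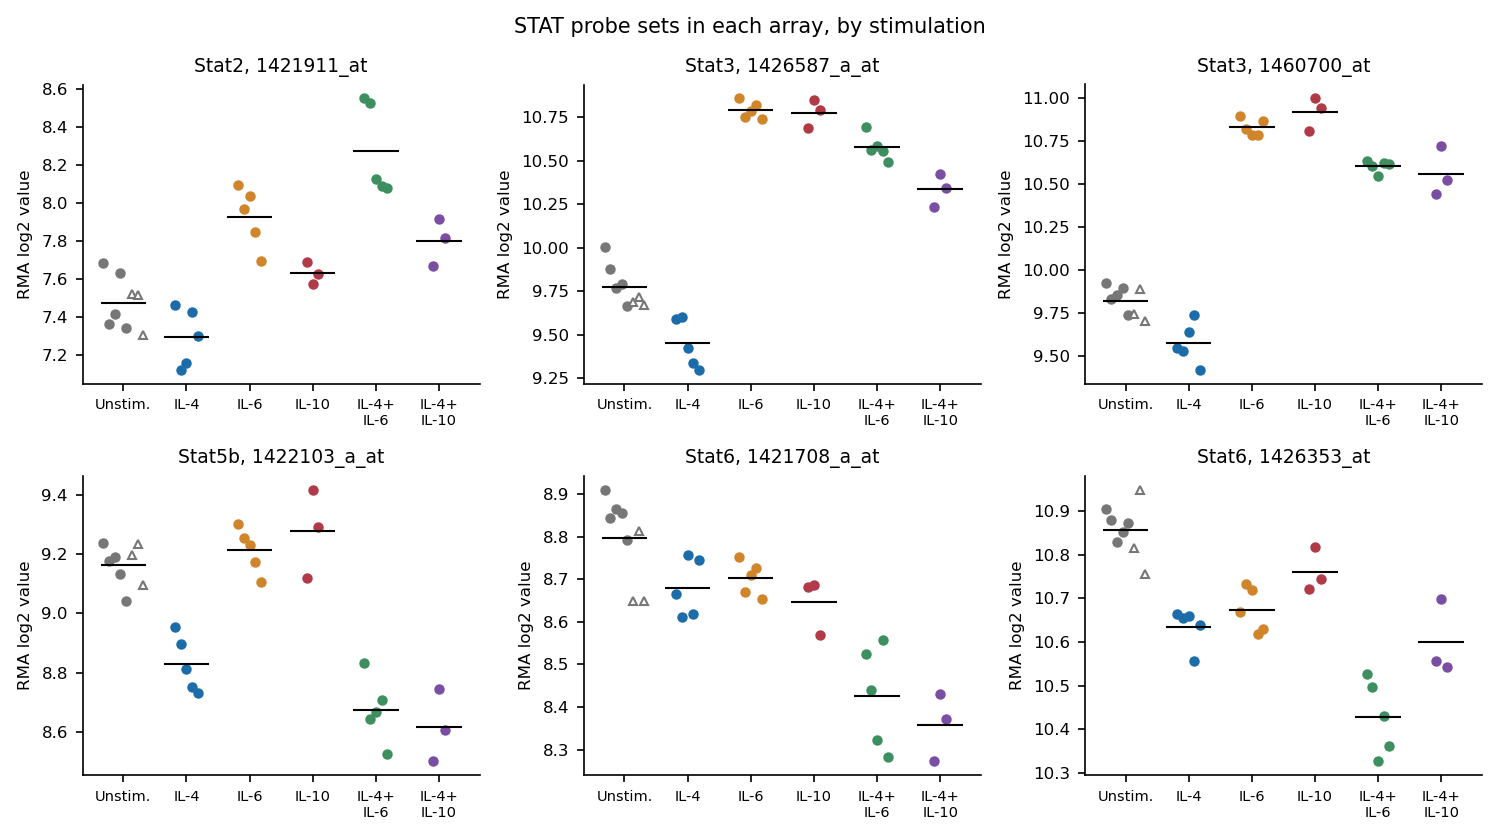
RMA log2 value of 6 tested STAT probe sets in each of the 29 arrays (vertical axis, its range set per panel and not starting at 0), by stimulation group; horizontal bars are group means and open triangles are unstimulated replicates 6 to 8. Stat3 is highest with IL-6 or IL-10 alone, Stat2 with IL-4+IL-6, and Stat5b and Stat6 are lower in the groups that received IL-4 with IL-6 or IL-10.

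The genes whose pattern over the 29 arrays was most like that of Stat3 1460700_at, by Pearson's r over all tested genes with 1 probe set a gene, were Ap1b1 (0.98), Socs3 (0.98) and Timm10b (0.97), and the most opposite was Arhgap5 (-0.95). These correlations describe arrays that share their stimulation groups. With the group means taken out they were 0.57, 0.09, 0.39 and -0.37, so the likeness to Socs3 lay almost wholly between groups. Socs3, the inhibitor that STAT3 induces, had a log2 difference from unstimulated of 4.95 ± 0.11 with IL-6, 5.64 ± 0.13 with IL-10, 4.62 ± 0.11 with IL-4+IL-6 and 3.54 ± 0.13 with IL-4+IL-10. With IL-4 alone it fell by 0.51 on the log2 scale. The Socs3 order of groups was that of Stat3 1460700_at with a far larger range. Of 23 tested genes on a list of STAT3-responsive genes, 20 rose and 2 fell with IL-6 (median log2 difference 1.18, against -0.03 over 7157 genes), and 19 rose and 1 fell with IL-10 (0.999, against 0.00 over all genes). With IL-4 alone 7 rose and 12 fell (median -0.17, against -0.01 over all genes). With IL-4+IL-6, 17 rose and 3 fell, and with IL-4+IL-10, 16 rose and 4 fell. Over all 7157 genes, 27.4% rose and 31.7% fell with IL-4, 16% and 22.7% with IL-6, 18.1% and 19.4% with IL-10, 34.9% and 38.6% with IL-4+IL-6, and 38% and 33.8% with IL-4+IL-10. The gene lists were drawn up with earlier results of these data known, so their counts are not independent evidence of a direction.

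Stat6 encodes the factor that relays IL-4. Its RNA was not raised by IL-4, and it was lowest in the combinations. Probe set 1426353_at read between 10.76 and 10.95 in unstimulated arrays (median 10.86) and 10.66, 10.66, 10.66, 10.56 and 10.64 with IL-4. It read 10.53, 10.50, 10.33, 10.43 and 10.36 with IL-4+IL-6, and 10.56, 10.70 and 10.54 with IL-4+IL-10. Every array that received IL-4 lay below every unstimulated array. The 5 IL-6 arrays read 10.67, 10.73, 10.72, 10.62 and 10.63, below the unstimulated range too, and the IL-10 arrays read 10.72, 10.82 and 10.74, overlapping it.

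The changes of Stat6 1426353_at were small but larger than the spread. The log2 difference was -0.22 ± 0.04 with IL-4 (1.17-fold lower, limma adjusted p 1.91e-05), -0.18 ± 0.04 with IL-6 (limma adjusted p 0.000402) and -0.10 ± 0.05 with IL-10 (limma adjusted p 0.0995, not called). It was -0.43 ± 0.04 with IL-4+IL-6 (1.35-fold lower, limma adjusted p 9.53e-11) and -0.26 ± 0.05 with IL-4+IL-10 (1.20-fold lower, limma adjusted p 1.66e-05). The IL-4+IL-6 level was what the single effects sum to. The sum was -0.41, and the interaction was -0.02 ± 0.06 (limma adjusted p 0.786).

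Probe set 1421708_a_at of Stat6 lay below the whole unstimulated range in the combinations. It read 8.65 to 8.91 in unstimulated arrays (median 8.83), 8.53, 8.44, 8.32, 8.56 and 8.28 with IL-4+IL-6, and 8.27, 8.43 and 8.37 with IL-4+IL-10. No combination array reached the unstimulated range. The log2 difference was -0.37 ± 0.05 for IL-4+IL-6 (limma adjusted p 1.74e-07) and -0.44 ± 0.06 for IL-4+IL-10 (limma adjusted p 2.35e-07). The single cytokines overlapped the unstimulated arrays. IL-4 arrays read 8.66, 8.61, 8.76, 8.62 and 8.74, IL-6 arrays 8.75, 8.67, 8.71, 8.73 and 8.65, and IL-10 arrays 8.68, 8.69 and 8.57. The differences were -0.12 ± 0.05 with IL-4 (limma adjusted p 0.0450), -0.09 ± 0.05 with IL-6 (0.139) and -0.15 ± 0.06 with IL-10 (0.0461).

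The IL-4 and IL-10 calls in this probe set stood near the threshold. The first was lost on leaving out any 1 of 10 arrays and the second on leaving out any 1 of 15. With the set term and the replicate block the IL-10 difference was -0.06 (limma adjusted p 0.610), while that of IL-6 became -0.15 ± 0.04 and was called (0.00575). Unstimulated replicates 6 and 8 read 8.65 each, below all of replicates 1 to 5. The difference between the unstimulated arrays of the sets was -0.15 ± 0.06 (limma adjusted p 0.0615).

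Adding a STAT3-activating cytokine to IL-4 lowered Stat6 further in 3 of 4 tests. With IL-6 added to IL-4 the difference was -0.25 ± 0.06 in 1421708_a_at and -0.21 ± 0.04 in 1426353_at. With IL-10 added it was -0.32 ± 0.06 in 1421708_a_at, called, and -0.04 ± 0.05 in 1426353_at, not called (limma adjusted p 0.558). With the set term and the block the first of these IL-10 differences was -0.17 ± 0.08 (limma adjusted p 0.110). The probe sets parted where the combinations were compared. IL-4+IL-10 stood 0.17 ± 0.05 above IL-4+IL-6 in 1426353_at (limma adjusted p 0.00673), but 0.12 and no longer called without IL-4+IL-10 replicate 2 (0.0820), and 0.20 and not called with the set term (0.0549). Adding the replicate block made the 0.20 called (limma adjusted p 0.0355). In 1421708_a_at this difference was -0.07 ± 0.06 and not called. IL-4+IL-10 against IL-10 alone gave -0.29 ± 0.07 and -0.16 ± 0.06. The smaller of these, in 1426353_at, lost its call without IL-4+IL-10 replicate 1 or 3 or IL-10 replicate 2, at -0.13 to -0.14.

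In order of group means, unstimulated cells were highest in both Stat6 probe sets. In 1421708_a_at the only called step between neighbours was from IL-10 down to IL-4+IL-6, and in 1426353_at it was from IL-4+IL-10 down to IL-4+IL-6. The genes most like Stat6 1426353_at over the 29 arrays were Trem2, Cracr2b and Tnip1 (Pearson's r 0.94 each), and the most opposite was Ssr3 (-0.94). These correlations were 0.71, 0.58, 0.74 and -0.46 once the group means were taken out. Most genes on the list of known STAT6 responders rose in the 3 groups given IL-4. Of 20 tested genes on the STAT6-responsive list, 19 rose and 1 fell with IL-4 (median log2 difference 2.65), 18 rose and 1 fell with IL-4+IL-6 (2.72) and 20 rose with IL-4+IL-10 (2.57). With IL-6 4 rose and 6 fell (-0.02), and with IL-10 4 rose and 5 fell (-0.03). Over all genes 27.4% rose and 31.7% fell with IL-4, 34.9% and 38.6% with IL-4+IL-6, and 38% and 33.8% with IL-4+IL-10. The shares were 16% and 22.7% with IL-6 and 18.1% and 19.4% with IL-10. The gene of this list that fell with IL-4 was Il4ra, which encodes the IL-4 receptor chain that docks STAT6.

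Stat5a and Stat5b encode closely related factors that relay CSF family cytokines, growth hormone, prolactin and IL-2 family cytokines. Stat5b, Stat5a and Stat3 are neighbours on chromosome 11 in the RefSeq gene table.

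The RNA of Stat5b, read by 1422103_a_at, was lower wherever IL-4 was present. It read between 9.04 and 9.24 in unstimulated arrays (median 9.19) and 8.95, 8.90, 8.81, 8.75 and 8.73 with IL-4. The IL-4+IL-6 arrays read 8.83, 8.64, 8.67, 8.71 and 8.53, and the IL-4+IL-10 arrays 8.50, 8.74 and 8.61. None of these 13 arrays reached the unstimulated range. IL-6 arrays read 9.30, 9.26, 9.23, 9.17 and 9.11, and IL-10 arrays 9.12, 9.42 and 9.29, both overlapping the unstimulated ones.

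The log2 difference of Stat5b from unstimulated was -0.33 ± 0.05 with IL-4 (1.26-fold lower, limma adjusted p 7.77e-06). It was -0.49 ± 0.05 with IL-4+IL-6 (limma adjusted p 6.36e-09) and -0.55 ± 0.06 with IL-4+IL-10 (1.46-fold lower, limma adjusted p 2.58e-08). IL-6 and IL-10 alone gave 0.05 ± 0.05 (limma adjusted p 0.512, 95% interval -0.06 to 0.16) and 0.11 ± 0.06 (limma adjusted p 0.177, 95% interval -0.02 to 0.25). Neither IL-6 nor IL-10 alone was thus called for Stat5b, while both combinations with IL-4 were called as lower.

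The departure from the sum of single effects was tested by the interaction, where Stat5b was 1 of 2 STAT probe sets called for IL-4 with IL-6 (38.2% of all) and the only one for IL-4 with IL-10 (24% of all). It was -0.20 ± 0.08 with IL-6 (limma adjusted p 0.0485) and -0.33 ± 0.10 with IL-10 (limma adjusted p 0.0139). The sums of the single effects were -0.29 and -0.22, against the observed -0.49 and -0.55. The first interaction was lost on leaving out any 1 of 19 arrays (-0.17 to -0.21 there), with the set term (-0.21, limma adjusted p 0.0562) and after median centring (-0.18, limma adjusted p 0.0625). With the set term and the replicate block it was called (-0.21 ± 0.06, limma adjusted p 0.00371). The second was lost without IL-4+IL-10 replicate 1 (-0.27, limma adjusted p 0.0570) or IL-10 replicate 2 (-0.26, limma adjusted p 0.0648).

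Against the single cytokines, adding IL-6 or IL-10 to IL-4 moved Stat5b by -0.16 ± 0.06 (limma adjusted p 0.0297) and -0.21 ± 0.07 (limma adjusted p 0.0112). Adding IL-4 to IL-6 or to IL-10 moved it by -0.54 ± 0.06 and -0.66 ± 0.08. The first pair overlapped the IL-4 arrays and the second pair did not overlap. The difference from IL-4 with IL-6 added lost its call without IL-4 replicate 1 or 2 or IL-4+IL-6 replicate 2 or 5 (-0.12 to -0.15). That with IL-10 added lost it without IL-4+IL-10 replicate 1 (-0.16, limma adjusted p 0.0974) and with the set term (-0.23, limma adjusted p 0.0779), and kept it with the set term and the replicate block (-0.23, limma adjusted p 0.0236). In the order of group means IL-10, IL-6 and unstimulated were not called as different, nor were the 2 combinations, and IL-4 stood between.

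The second Stat5b probe set did not follow. Probe set 1422102_a_at did not pass the filter and read 6.07 to 6.86. In the fit without the filter it was called in 1 of the 5 comparisons with unstimulated, at 0.29 ± 0.08 with IL-4+IL-6 (limma adjusted p 0.00435), the direction opposite to the brighter probe set. With IL-4 it gave 0.05 ± 0.08 and with IL-4+IL-10 0.10 ± 0.10. The fall of Stat5b RNA therefore rests on 1 probe set. When the 2 were averaged, the difference was -0.14 ± 0.05 with IL-4 (limma adjusted p 0.0182), -0.10 ± 0.05 with IL-4+IL-6 (limma adjusted p 0.0765) and -0.23 ± 0.06 with IL-4+IL-10 (limma adjusted p 0.00148), and neither interaction was called (-0.04 and -0.21). The probe sequences were not used here, so whether these probe sets read different transcript ends or the related Stat5a was not tested.

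Genes most like Stat5b 1422103_a_at over the 29 arrays were Tifa (Pearson's r 0.97), Smox (0.96) and Rassf5 (0.96), and the most opposite was Fkbp1a (-0.96). These correlations were 0.77, 0.70, 0.65 and -0.83 once the group means were taken out.

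Stat5a, read by 1421469_a_at, fell into 2 ranges among unstimulated arrays. Replicates 1 to 5 read 6.39, 6.05, 6.37, 6.35 and 6.01, and replicates 6 to 8 read 7.44, 7.57 and 7.39. The gap of 1.23 ± 0.11 (limma adjusted p 1.57e-08) ranked 17 among the increases of the 11139 probe sets tested between these arrays. The unstimulated SD of 0.65 in this probe set was at least 4 times that of any other tested STAT probe set. The 3 IL-10 arrays read 7.44, 7.68 and 7.51, inside or just above the range of replicates 6 to 8, and the IL-4+IL-10 arrays read 7.78, 8.09 and 8.13, above all unstimulated arrays.

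The groups of 5 lay nearer to replicates 1 to 5. IL-4 arrays read 7.00, 6.80, 6.51, 6.72 and 6.52, IL-6 arrays 6.42, 6.73, 6.75, 6.56 and 6.55, and IL-4+IL-6 arrays 6.91, 6.94, 7.17, 6.92 and 6.83. All 15 lay above unstimulated replicates 1 to 5 and below replicates 6 to 8. The answer for Stat5a thus depends on which unstimulated arrays a group is set against. The B-lineage scores given above part the same arrays. The 3′ minus 5′ log2 difference of Actb control probe sets, a sign of RNA quality, was 0.318 ± 0.009 in replicates 1 to 5. It was 0.441 ± 0.070 in replicates 6 to 8. In the IL-10 arrays it was 0.31 to 0.363 and in the IL-4+IL-6 arrays 0.345 to 0.391, which overlapped. The IL-4+IL-10 arrays, at 0.377 to 0.441, lay above the IL-4 arrays, at 0.294 to 0.34. The IL-6 arrays, at 0.22 to 0.263, lay below those of every other group. The same difference of Gapdh was -0.049 ± 0.014 in replicates 1 to 5 and -0.057 ± 0.048 in replicates 6 to 8, which overlapped. For Gapdh the IL-4+IL-6 arrays, at -0.00668 to 0.0445, lay above all unstimulated ones, at -0.109 to -0.0136. The part of these measures in the Stat5a values was not tested.

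Set against all 8 unstimulated arrays, Stat5a was 0.85 ± 0.24 higher with IL-10 (limma adjusted p 0.00714) and 1.30 ± 0.24 higher with IL-4+IL-10 (limma adjusted p 3.08e-05). IL-4, IL-6 and IL-4+IL-6 gave 0.01 ± 0.20, -0.10 ± 0.20 and 0.26 ± 0.20 and were not called. These values changed places when the set term was added. The IL-10 difference was 0.08 ± 0.12 (limma adjusted p 0.700), while IL-4 gave 0.47 ± 0.10 (limma adjusted p 0.000163), IL-6 0.37 ± 0.10 (limma adjusted p 0.00418), IL-4+IL-6 0.72 ± 0.10 (limma adjusted p 2.25e-07) and IL-4+IL-10 0.53 ± 0.12 (limma adjusted p 0.000556). With the set term and the replicate block the same 4 differences were called and IL-10 was not. Only the IL-4+IL-10 difference was called both ways, and its size moved from 1.30 to 0.53.

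IL-4+IL-10 differed from IL-10 by 0.46 in Stat5a, which was not called without the set term (± 0.29, limma adjusted p 0.187) and was called with it (± 0.12, limma adjusted p 0.00262). IL-4+IL-6 differed from IL-6 by 0.35, likewise not called without the set term (± 0.23, limma adjusted p 0.173) and called with it (± 0.10, limma adjusted p 0.00219). In neither pair did the arrays overlap. Differences that cross the sets cannot be separated from the set without the unstimulated arrays. IL-10 against IL-6 was 0.94 ± 0.26, 1 STAT probe set called of 7 (14.8% of all), and it was -0.29 with the set term. Without IL-10 replicate 2 it was 0.87 (limma adjusted p 0.0929). IL-4+IL-10 against IL-4+IL-6 was 1.04 ± 0.26, and -0.19 with the set term. IL-4+IL-10 against IL-4 was 1.29 ± 0.26, and 0.06 with the set term (limma adjusted p 0.807). In the order of group means of Stat5a, from IL-4+IL-10 through IL-10, IL-4+IL-6, IL-4 and unstimulated to IL-6, no neighbouring step was called without the set term.

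**Figure D3:**
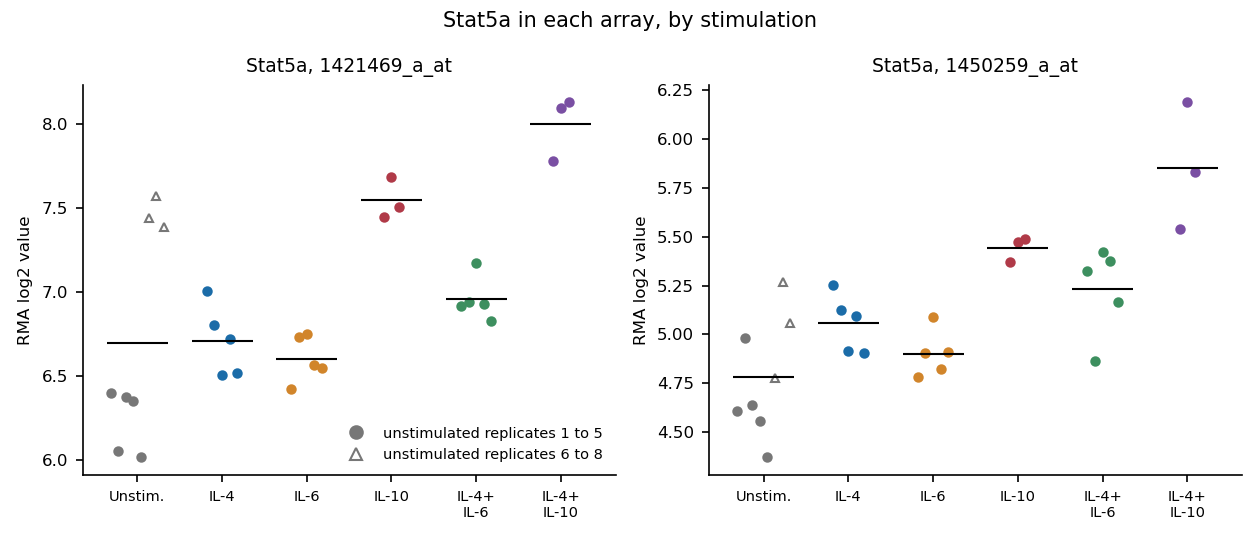
RMA log2 value of the 2 Stat5a probe sets in each array (vertical axis, its range set per panel and not starting at 0) by stimulation group, with group means as bars and unstimulated replicates 6 to 8 as open triangles. In 1421469_a_at the triangles (7.39 to 7.57) sit with the IL-10 arrays and more than 0.9 above the filled unstimulated points (6.01 to 6.39), and in the dimmer 1450259_a_at the 2 ranges overlap.

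The dimmer Stat5a probe set, 1450259_a_at, read 4.37 to 6.19 and did not pass the filter. Its unstimulated arrays overlapped between the sets, at 4.37 to 4.98 and 4.78 to 5.27, and their difference was 0.40 ± 0.14 in the fit without the filter (limma adjusted p 0.0636). In that fit IL-10 (0.66 ± 0.14), IL-4+IL-6 (0.45 ± 0.12) and IL-4+IL-10 (1.07 ± 0.14) were called as higher. In the model that holds the set term it was higher with IL-4 (0.43 ± 0.12), IL-4+IL-6 (0.60 ± 0.12) and IL-4+IL-10 (0.82 ± 0.15), all called by limma. IL-6 gave 0.27 ± 0.12 and IL-10 0.41 ± 0.15, not called. Both Stat5a probe sets were thus called as higher with IL-4 and both combinations once the set was in the model, where Stat5b 1422103_a_at was called as lower. That the 2 genes differ in response was not tested, since their probe sets are separate features.

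Genes most like Stat5a 1421469_a_at were Vapb (Pearson's r 0.95), Arf5 (0.95) and Psmd13 (0.94), and the most opposite was Bclaf1 (-0.90). After the group means were taken out, these correlations were 0.87, 0.89, 0.88 and -0.79, so the likeness includes the split among unstimulated arrays. Of the 8 tested genes on a list of STAT5-responsive genes, 4 rose and 3 fell with IL-4, with IL-4+IL-6 and with IL-4+IL-10. With IL-6 4 rose and 1 fell, and with IL-10 4 rose and none fell. The largest was Socs2, at 4.66 with IL-4, 5.17 with IL-4+IL-6 and 4.91 with IL-4+IL-10, and 0.16 and 0.09 with IL-6 and IL-10 alone, not called. Over all genes 27.4% rose and 31.7% fell with IL-4, 34.9% and 38.6% with IL-4+IL-6, and 38% and 33.8% with IL-4+IL-10. The shares were 16% and 22.7% with IL-6 and 18.1% and 19.4% with IL-10.

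Stat2 encodes the partner that, with IRF9, forms the interferon-activated complex ISGF3. Its RNA was higher with IL-4+IL-6 than the single effects sum to. Its promoter window is shown because it holds matches to both an interferon element and a STAT site. It lies at chr10:128270248-128270497 on the plus strand (RefSeq, GRCm38.p6), with the motif matches in capitals.

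Stat2: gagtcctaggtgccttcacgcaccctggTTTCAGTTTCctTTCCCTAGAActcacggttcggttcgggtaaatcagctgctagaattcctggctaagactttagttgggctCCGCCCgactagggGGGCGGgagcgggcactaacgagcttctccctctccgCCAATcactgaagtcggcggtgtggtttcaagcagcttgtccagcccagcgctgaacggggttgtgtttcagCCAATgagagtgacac

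In this window TTTCAGTTTC at -222 to -213 matches the ISRE core and TTCCCTAGAA at -210 to -201 matches the STAT site with a 4-base spacer. The other capitals are GC boxes at -139 to -134 and -125 to -120 and CCAAT boxes at -88 to -84 and -16 to -12. Among the 9 windows of the 6 STAT genes, 2 hold the ISRE core (Stat2 and 1 of the 2 Stat4 windows), 1 holds the site with the 4-base spacer (Stat2) and 0 hold TTCNNNGAA.

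Stat2 1421911_at read between 7.31 and 7.69 in unstimulated arrays (median 7.47). IL-6 arrays read 8.09, 7.97, 8.04, 7.85 and 7.70, and IL-4+IL-6 arrays 8.55, 8.53, 8.13, 8.09 and 8.08. IL-4 arrays read 7.46, 7.12, 7.16, 7.43 and 7.30. The IL-6 arrays lay just above all unstimulated ones, the IL-4+IL-6 arrays far above, and the IL-4 arrays in the lower part of the unstimulated range and below it. IL-10 arrays, at 7.69, 7.57 and 7.63, and IL-4+IL-10 arrays, at 7.67, 7.92 and 7.82, overlapped the unstimulated range at its top.

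The log2 difference of Stat2 from unstimulated was 0.46 ± 0.09 with IL-6 (1.37-fold, limma adjusted p 0.000142) and 0.80 ± 0.09 with IL-4+IL-6 (1.75-fold, limma adjusted p 4.35e-09). It was 0.33 ± 0.10 with IL-4+IL-10 (1.26-fold, limma adjusted p 0.00661), which without IL-4+IL-10 replicate 2 became 0.27 (0.0539). IL-4 alone gave -0.18 ± 0.09 (limma adjusted p 0.0828), and IL-10 alone 0.16 ± 0.10 (limma adjusted p 0.243), neither called. With the set term and the replicate block the IL-4 difference was -0.19 ± 0.08 and was called (limma adjusted p 0.0364).

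IL-4 thus went with no increase of Stat2 alone and with a higher level beside IL-6. IL-4+IL-6 exceeded IL-6 by 0.35 ± 0.10 (limma adjusted p 0.00282) and IL-4 by 0.98 ± 0.10 (1.98-fold, limma adjusted p 1.30e-09). The single effects summed to 0.28 against the observed 0.80, and the interaction was 0.53 ± 0.13 (limma adjusted p 0.00209). It kept its direction and its call in all 12 other settings tried that tested this gene, and in every fit without 1 array. For IL-4 with IL-10 the sum was -0.02 against the observed 0.33, and the interaction of 0.35 ± 0.15 was not called (limma adjusted p 0.0974) except with the set term and the replicate block (0.36 ± 0.13, limma adjusted p 0.0314). Whether the interactions with IL-6 and with IL-10 differ was not tested.

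IL-4+IL-10 exceeded IL-4 by 0.51 ± 0.11 (limma adjusted p 0.000415), and exceeded IL-10 by 0.17 ± 0.13, not called (0.253). The combinations differed, with IL-4+IL-10 at -0.48 ± 0.11 against IL-4+IL-6 (limma adjusted p 0.00139). The set term gave -0.44 ± 0.16, which was not called (limma adjusted p 0.0687), and the replicate block added to it made the same -0.44 called (limma adjusted p 0.0490). IL-10 against IL-6 gave -0.30 ± 0.11 and was not called (limma adjusted p 0.0717), though their arrays did not overlap. In the order of group means, IL-4+IL-6 led and differed from IL-6, and none of the further neighbouring steps, from IL-6 through IL-4+IL-10, IL-10 and unstimulated to IL-4, was called.

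The dimmer Stat2 probe set 1450403_at had too few arrays above the filter and read 6.12 to 7.06. Without the filter it gave the same order of groups, with 0.33 ± 0.07 for IL-6, 0.56 ± 0.07 for IL-4+IL-6 and an interaction of 0.35 ± 0.11 (limma adjusted p 0.0221), all called. IL-4, IL-10 and IL-4+IL-10 gave -0.12 ± 0.07, 0.07 ± 0.09 and 0.18 ± 0.09, not called. The last became 0.29 ± 0.10 with the set term and was called (limma adjusted p 0.0217). Both probe sets therefore gave more with IL-4+IL-6 than the single effects sum to.

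**Figure D4:**
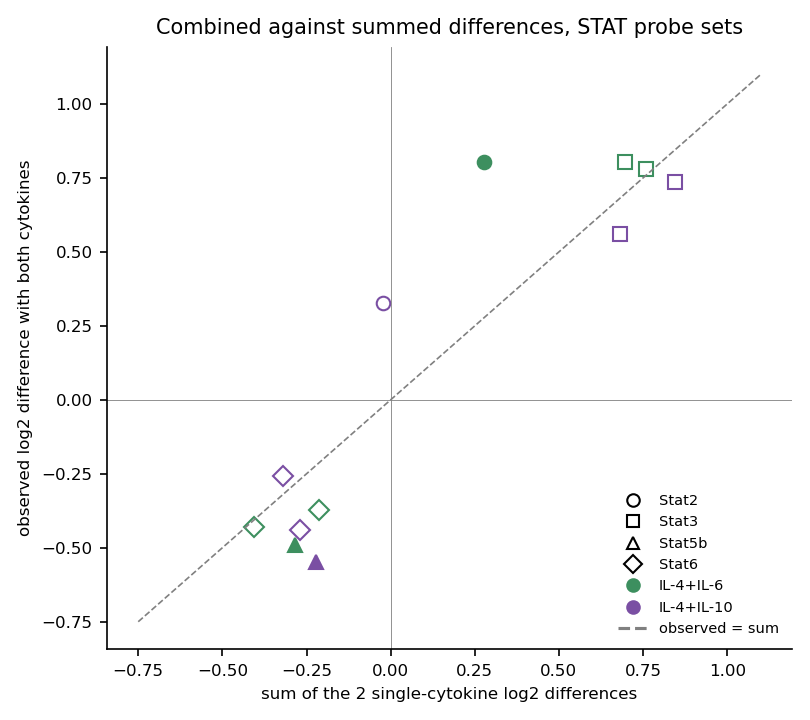
Observed log2 difference of each combination from unstimulated (vertical axis) against the sum of the 2 single-cytokine differences (horizontal axis) for 6 tested STAT probe sets, filled where the interaction was called; Stat5a is left out because its unstimulated arrays fall into 2 ranges. Stat2 with IL-4+IL-6 lies above the dashed line of equality (0.80 against 0.28), both Stat5b points lie below it, and no interaction of Stat3 or Stat6 was called.

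Against unstimulated cells, the partner and the targets of STAT2 did not share its rise with IL-4+IL-6. Irf9 was lower with IL-4+IL-6 (-0.25 ± 0.06, limma adjusted p 0.00101), with IL-4 (-0.46 ± 0.06) and with IL-4+IL-10 (-0.57 ± 0.08), and it was higher with IL-6 (0.23 ± 0.06, limma adjusted p 0.00613). Of 18 tested genes on a list of ISGF3-responsive genes, 11 rose and 1 fell with IL-6 (median log2 difference 0.20), while 1 rose and 15 fell with IL-4+IL-6 (-0.56). With IL-4 1 rose and 16 fell (-0.76), with IL-10 1 rose and 4 fell (-0.10), and with IL-4+IL-10 1 rose and 15 fell (-0.93). Over all genes 16% rose and 22.7% fell with IL-6, 34.9% and 38.6% with IL-4+IL-6, and 27.4% and 31.7% with IL-4. The shares were 18.1% and 19.4% with IL-10 and 38% and 33.8% with IL-4+IL-10. Against IL-4 alone, IL-4+IL-6 had 10 higher and 1 lower (0.20, with 29.1% and 31% of all genes), the direction of Stat2. Against IL-6 alone, IL-4+IL-6 had 1 higher and 17 lower (-0.81, with 33.8% and 32.7% of all genes). The member that rose with IL-4 and in the combinations was Usp18. Genes most like Stat2 1421911_at over the 29 arrays were C1ra (Pearson's r 0.91), Fcgrt (0.91) and Pdpn (0.91), and the most opposite was Tubb2a (-0.88). With the group means taken out, these correlations were 0.49, 0.49, 0.11 and -0.42.

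Stat4, which relays IL-12 in T and NK cells, did not pass the filter. Its probe set 1448713_at read 5.06 to 5.87 in unstimulated arrays (median 5.32) and between 4.66 and 5.69 in the others, below the filter in every array. None of the 9 measured T and NK cell markers passed the filter, and these read 3.75 to 6.18. In the fit without the filter, 10 of the 12 STAT probe sets were called for IL-4+IL-10 (43.9% of all) and 11 for IL-4+IL-6 (47.7% of all), Stat4 among them at -0.47 ± 0.16 (limma adjusted p 0.0144) and -0.34 ± 0.13 (0.0329). Under the set term these were -0.21 ± 0.17, not called (limma adjusted p 0.389), and -0.50 ± 0.13, called (limma adjusted p 0.00211). IL-4, IL-6 and IL-10 alone gave -0.13 ± 0.13, 0.14 ± 0.13 and -0.13 ± 0.16, not called. No neighbouring step in the order of its group means was called. Unstimulated replicates 6 to 8 read 5.06, 5.09 and 5.24 and replicates 1 to 5 read 5.24 to 5.87.

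The kinases and receptors upstream of the STATs included genes with larger differences than any STAT. Of the 4 JAK genes, all tested, 1 rose with IL-4, 3 with IL-6, 2 with IL-10, 3 with IL-4+IL-6 and 2 with IL-4+IL-10, and none fell. In the same order, 27.4%, 16%, 18.1%, 34.9% and 38% of all genes rose, and 31.7%, 22.7%, 19.4%, 38.6% and 33.8% fell. Jak2, which serves among others the CSF family and IL-6 type receptors, rose by 0.97 ± 0.04 with IL-4, 0.15 ± 0.04 with IL-6 and 2.35 ± 0.04 (5.10-fold) with IL-4+IL-6. Like Stat2 it exceeded the sum of the single effects, with an interaction of 1.23 ± 0.05 with IL-6 and 0.74 ± 0.06 with IL-10. Jak3, which pairs with the common gamma chain, rose with IL-6 (0.75 ± 0.06) and IL-10 (0.95 ± 0.08) and not with IL-4 (-0.001 ± 0.065, limma adjusted p 0.989). The Jak3 mean exceeded the filter value of log2 6.99 only with IL-6 (7.07) and IL-10 (7.27). It lay below that value in unstimulated cells (6.32) and with IL-4 (6.32), IL-4+IL-6 (6.84) and IL-4+IL-10 (6.88). Jak1 was called as higher with IL-6 (0.31) and IL-4+IL-6 (0.25), which the set term ended (0.15 and 0.10, limma adjusted p 0.0551 and 0.161). Tyk2 was called in none of the 5 comparisons with unstimulated.

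Of 17 tested receptor chains, 6 rose and 9 fell with IL-4 (median log2 difference -0.22), 9 rose and 2 fell with IL-6 (0.18), and 7 rose and 2 fell with IL-10 (0.01). With IL-4+IL-6 7 rose and 8 fell, and with IL-4+IL-10 6 rose and 8 fell. Over all genes 27.4% rose and 31.7% fell with IL-4, 16% and 22.7% with IL-6, and 18.1% and 19.4% with IL-10. The shares were 34.9% and 38.6% with IL-4+IL-6 and 38% and 33.8% with IL-4+IL-10. The chain that docks STAT6, Il4ra, rose by 2.91 ± 0.10 with IL-6, 3.16 ± 0.12 with IL-10, 3.47 ± 0.10 with IL-4+IL-6 and 1.98 ± 0.12 with IL-4+IL-10, groups in which Stat6 RNA was flat or lower. The chain that docks STAT3 for IL-6, Il6st, rose by 1.26 with IL-4, 2.25 with IL-4+IL-6 and 1.94 with IL-4+IL-10. The chain that docks STAT3 for IL-10, Il10ra, fell by 0.78 on the log2 scale with IL-4, by 1.23 with IL-4+IL-6 and by 1.16 with IL-4+IL-10.

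A list of SOCS family members and phosphatases also held Usp18. Of its 14 tested genes, 7 rose and 4 fell with IL-4, 4 rose and 3 fell with IL-6, and 5 rose and 1 fell with IL-10. With IL-4+IL-6 9 rose and 4 fell, and with IL-4+IL-10 8 rose and 4 fell. Cish and Socs1, inhibitors that cytokines acting through STAT5 and STAT6 induce, rose by 2.64 and 1.96 with IL-4 and by 3.15 and 2.67 with IL-4+IL-6. Of 16 tested STAT partners and co-regulators, 2 rose and 6 fell with IL-4, 5 rose and 1 fell with IL-6, 1 rose and 2 fell with IL-10, 6 rose and 7 fell with IL-4+IL-6, and 4 rose and 7 fell with IL-4+IL-10. Over all genes 27.4% rose and 31.7% fell with IL-4, 16% and 22.7% with IL-6, and 18.1% and 19.4% with IL-10. The shares were 34.9% and 38.6% with IL-4+IL-6, near those of the partners, and 38% and 33.8% with IL-4+IL-10.

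**Figure D5:**
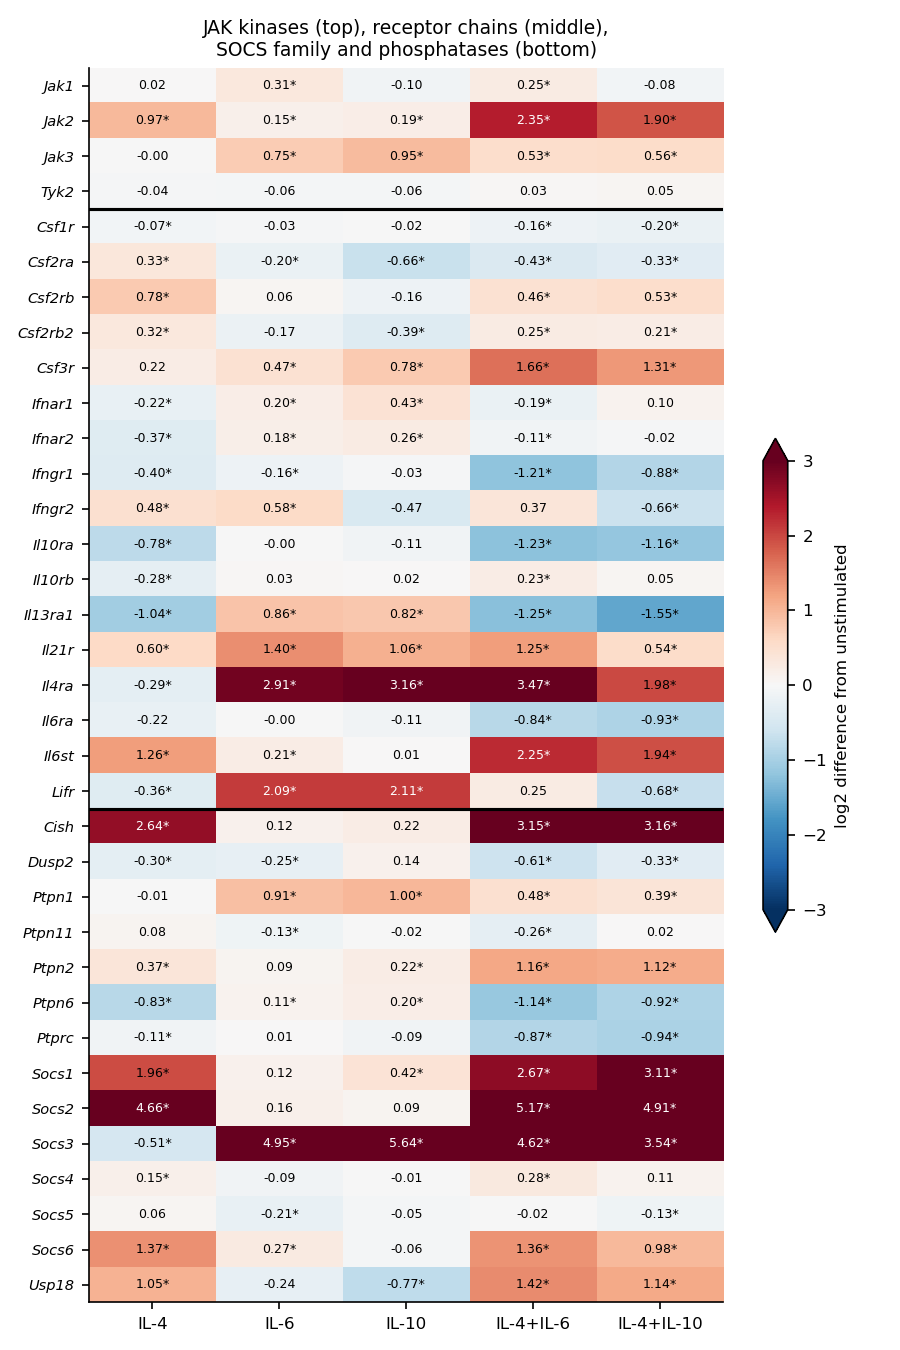
Log2 difference from unstimulated (colour and printed value, the colour scale ends at 3 in each direction) of the tested JAK kinases, receptor chains, and SOCS family members and phosphatases (Usp18 listed with them), 1 probe set a gene, with an asterisk where the adjusted p was under 0.05. Il4ra and Socs3 are high in the 4 groups that received IL-6 or IL-10, Jak2 and Il6st in the 3 groups that received IL-4, and Tyk2 is near 0 throughout.

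Between the stimulated groups, the direction of the STATs split by gene. Against IL-4 alone, IL-4+IL-6 called 6 of 7 STAT probe sets (58.4% of all), with both Stat3 probe sets and Stat2 higher and Stat5b and both Stat6 probe sets lower. IL-4+IL-10 called 6 of 7 against IL-4 (56.6% of all), and 3 with the set term (30.7% of all), those being the 2 Stat3 probe sets and Stat2, all higher. Against IL-6 alone, IL-4+IL-6 called 6 of 7 (65% of all), with Stat2 higher and the Stat3, Stat5b and Stat6 probe sets lower. Against IL-10 alone, IL-4+IL-10 called 5 of 7 (57.8% of all), all lower (27.1% of all), and these were again the Stat3, Stat5b and Stat6 probe sets. With the set term, Stat5a was also called, as higher, in IL-4+IL-10 against IL-10 (0.46). The set term likewise made Stat5a called as higher in IL-4+IL-6 against IL-4 (0.25) and against IL-6 (0.35). The 2 combinations differed in 4 of 7 (42.8% of all), and in none by limma with the set term (14.7% of all), where 2 had an unadjusted p under 0.05. With the replicate block beside the set term these 2, Stat2 and Stat6 1426353_at, were called.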

How the data were processed

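RNA of 29 macrophage samples was hybridised to Affymetrix arrays. The deposited log2 values, 1 per probe set and array, were made by the authors with RMA, per the labels. That the base of the logarithm is 2 was settled from the range of the values. GCOS 1.4 is named in the submitters' processing notes without its role. The RMA software, its annotation and a joint or separate normalization of the arrays are not given in the sources used here.

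Probe sets were named from the platform annotation, which gives 20393 probe sets 1 gene, 691 several and 1606 none. Of these 20393, 20364 were found in the RefSeq gene table (GRCm38.p6) and 0 symbols changed. Probe sets with 1 gene and at least 3 arrays over 6.99 were fitted with limma 3.58.1 in R 4.3.3 across all 29 arrays, without covariates, and p-values were adjusted by Benjamini-Hochberg over all 11139 for each of 13 comparisons. The script was tested on simulated data. The text names all 12 STAT probe sets, the 3 genes most like and the 1 most opposite to each tested gene by Pearson's r, and members of the gene lists. For a list, a gene counts once, by its probe set of highest mean. Members and lists were chosen with earlier results of these data known.

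Alternatives covered normalization, filter, probe set choice, moderation, array weights, samples in the fit, a replicate block, a term for the inferred set and each array left out. The set term with the block and the fits within 1 set were chosen after seeing the data. Within a set, same-numbered arrays deviated together in all 33 pairs (r 0.47 to 0.803), so the blocked value stands beside a result where it changes the call. Promoter windows come from the RefSeq table.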

Additional observations from a re-analysis of the deposited data

Results flagged for a closer look

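In Stat6 1426353_at, IL-4 replicate 4 read 10.56, while the other IL-4 arrays read 10.64 to 10.66, so its gap to the nearest took up 0.777 of the range of the group. It was the only such value in the 48 groups of STAT values looked at, where chance gives about 1 in 20.

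The effect of IL-4 on Stat2 1421911_at differed with and without IL-6. The interaction was 0.526 (limma adjusted p 0.00209). The effect of IL-4 on Stat5b 1422103_a_at also differed, with an interaction of -0.205 with IL-6 (limma adjusted p 0.0485) and of -0.327 with IL-10 (limma adjusted p 0.0139). The second Stat5b probe set showed neither, at 0.13 and -0.10 in the fit without the filter.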

How the results depend on the processing

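Of the 57 called differences of the tested STAT probe sets, all kept direction and call with trend and robust moderation, with array weights and with the replicate block alone, as did 56 after quantile normalization and 56 after median centring, 53 without the filter, 53 with only the groups compared, 46 with the set term and 50 with the set term and block. Of those that could be computed, 45 of 52 were kept with probe sets averaged per gene, 42 of 45 within 1 set, 39 of 39 with 1 probe set a gene and 36 of 36 with the filter at the 75th percentile (9.16). The direction turned for Stat5a in IL-10 against IL-6 and in IL-4+IL-10 against IL-4+IL-6, at -0.29 and -0.19 with the set term, with or without the block. It turned for Stat5b in IL-4+IL-6 against IL-4, at 0.041, with the mean of its probe sets. Apart from the construction of each alternative (fewer probe sets or arrays), the cause was not tested.

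The number of STAT probe sets called changed as follows. For IL-10 against unstimulated (4) it was 2 with the stricter filter, 1 probe set a gene, the mean of probe sets, only the groups compared, the set term, the set term with the block, and 1 set only. For IL-10 against IL-6 (1) it was 2 after quantile normalization, without the filter, with only the groups compared and with the replicate block, and 0 with the stricter filter and with the set term, blocked or not (limma, with 0 at an unadjusted p under 0.05 with the set term). For IL-4+IL-10 against IL-4+IL-6 (4) it was 2 with the stricter filter and with the set term and block, 1 with the mean of probe sets and 0 with the set term. For the interaction with IL-6 (2) it was 1 after median centring and with the stricter filter, the mean of probe sets and the set term. For the interaction with IL-10 (1) it was 0 with the mean of probe sets and 2 with the set term and block. For IL-4 against unstimulated (5) it was 3 with 1 probe set a gene and with the mean. For IL-4+IL-6 against unstimulated (6) it was 11 without the filter, over 12 probe sets, and 3 with the mean. For IL-4+IL-10 against unstimulated (7) it was 4 with the stricter filter and with the mean. For IL-4+IL-6 against IL-4 (6) it was 3 with the mean. For IL-4+IL-10 against IL-4 (6) it was 3 with the stricter filter, the mean and the set term. For IL-4+IL-10 against IL-10 (5) it was 3 with 1 probe set a gene and with the mean. Leaving out 1 array gave 0 to 2 for IL-10 against IL-6 (0 without IL-10 replicate 2 and 2 without IL-6 replicate 5), 1 to 2 for the interaction with IL-6 and 0 to 1 for that with IL-10.

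The labels' replicate number was fitted as a fixed block over all arrays, which also joins equal numbers of different inferred sets. It newly called, among others, Stat6 1426353_at with IL-10 (-0.13) and Stat2 in IL-10 against IL-6 (-0.35, limma adjusted p 0.0191), and it lost no call. The Stat5a and Stat6 differences that it also called are those called with the set term. Over all groups 41 of 57 same-numbered pairs had a correlation over 0.1, pairs across the inferred sets included. Beside the set term, the number within a set was a random block (consensus correlation 0.378), and its values that change a call stand beside the results. Unstimulated replicates 6 to 8 share no replicate number with the IL-10 and IL-4+IL-10 arrays, so the block did not pair them. Blocked differences of these groups from unstimulated cells therefore take no account of any such pairing.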
